A study of Mus musculus with 5 samples.

Results

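Proteasome genes were compared between E11.5 mouse forelimbs lacking both Sost and Sostdc1, secreted proteins that antagonize Wnt and BMP signalling, and wild type forelimbs. The genes were all those whose symbol in the platform annotation begins with Psma, Psmb, Psmc or Psmd followed by a number. This gave 80 probe sets of 45037 and 40 genes of 18193. All but Psmc3ip encode subunits, tissue forms of subunits or assembly chaperones. Psmc3ip encodes a factor of meiotic recombination and is counted with the others because the choice was made by name. A gene was represented by its brightest probe set, that of the greatest mean log2 intensity, and its other probe sets served as a check.

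The arrays were 2 from double mutant embryos (Sost-/-; Sostdc1-/-) and 3 from wild type embryos, all of the C57Bl/6 background and all from fore-limb. The labels describe the samples as biological replicates made without pooling embryos. The whole limb bud was taken, so each value is an average over its cell types, and RNA was amplified in a labelling of several cycles before hybridization. A difference subtracts the wild type mean from the double mutant mean of log2 intensity and carries the standard error of limma's linear model. A gene was called when its Benjamini-Hochberg adjusted p, taken over all 45037 probe sets, was under 0.05.

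The proteasome is the protease that breaks down proteins marked with ubiquitin. Its core particle is a barrel of alpha rings, which gate the entry, and beta rings, which carry the cutting sites. A regulatory particle sits on the end of the barrel. Its base holds a ring of ATPases that unfold the substrate, and its lid removes the ubiquitin chain. In limb buds the proteasome is known for processing Gli3, the transcription factor of the Hedgehog pathway, and for the turnover of beta-catenin in Wnt signalling. Subunits are needed in fixed proportion, and many of their genes respond together to the transcription factor encoded by Nfe2l1 when the protease is inhibited.

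The sequences upstream of the start of 5 of these genes are printed here, and their part in the differences was not tested. Psma1, Psmc1 and Psmd8 were called lower on their brightest probe set, and Psmb5 and Psmb6 encode catalytic subunits that were not called. Each is the 250 bases before the RefSeq start in GRCm38.p6, written 5′ to 3′ on the strand of the gene. Capitals mark every match, on either strand, to the motifs TGACNNNGC (the core of the antioxidant response element, which the Nfe2l1 protein binds), CCAAT, TGACGTCA and GGAAGTG. TGACGTCA has the bases TGAC in common with the first motif.
Psma1, chr7:114276117-114276366, minus strand: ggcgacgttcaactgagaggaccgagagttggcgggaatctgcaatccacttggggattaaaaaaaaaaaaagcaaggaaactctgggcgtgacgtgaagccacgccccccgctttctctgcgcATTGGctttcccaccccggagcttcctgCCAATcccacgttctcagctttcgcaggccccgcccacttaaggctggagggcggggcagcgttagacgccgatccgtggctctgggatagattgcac
Psmc1, chr12:100109952-100110201, plus strand: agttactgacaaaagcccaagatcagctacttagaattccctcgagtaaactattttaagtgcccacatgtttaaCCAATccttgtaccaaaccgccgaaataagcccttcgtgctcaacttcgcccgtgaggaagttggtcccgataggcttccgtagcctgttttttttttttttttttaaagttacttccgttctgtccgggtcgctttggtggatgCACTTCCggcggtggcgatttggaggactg
Psmd8, chr7:29180674-29180923, minus strand: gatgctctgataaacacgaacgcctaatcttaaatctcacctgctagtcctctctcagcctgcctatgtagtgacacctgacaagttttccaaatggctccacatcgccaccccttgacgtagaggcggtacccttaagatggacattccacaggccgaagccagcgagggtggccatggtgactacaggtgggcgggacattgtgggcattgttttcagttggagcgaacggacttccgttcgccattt
Psmb5, chr14:54617996-54618245, minus strand: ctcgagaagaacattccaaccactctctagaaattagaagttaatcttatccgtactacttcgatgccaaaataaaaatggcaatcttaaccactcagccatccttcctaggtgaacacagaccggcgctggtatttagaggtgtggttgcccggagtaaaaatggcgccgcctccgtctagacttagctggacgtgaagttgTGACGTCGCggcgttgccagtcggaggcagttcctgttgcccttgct
Psmb6, chr11:70525107-70525356, plus strand: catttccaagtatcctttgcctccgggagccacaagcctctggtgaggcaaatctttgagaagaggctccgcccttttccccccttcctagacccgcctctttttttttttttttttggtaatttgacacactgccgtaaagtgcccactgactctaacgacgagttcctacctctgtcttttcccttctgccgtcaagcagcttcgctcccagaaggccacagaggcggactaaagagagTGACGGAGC

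RefSeq windows were at hand for 33 of the 40 genes, in 35 windows. TGACNNNGC occurred in 5 of these windows (14.3%) and in 10.2% of all 32851 windows of the same length. The genes were Psmb5, Psmb6, Psmc6, Psmd9 and Psmd12. Of these 5, 0 were called, where 14.7% of all genes were called. CCAAT occurred in 14 windows (40% against 33.8% of all windows) and GGAAGTG in 4 (11.4% against 8.55%). TGACGTCA was found in 0 of the 35 windows and in 1.55% of all windows. Of the called genes, Psma1 held CCAAT, Psmc1 held CCAAT and GGAAGTG, and Psmd8 held no match to any of the 4 motifs. Psmb7, the other called gene, had no window and was not examined. A match describes these letters and is not a measured binding site.

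Some features of the arrays other than limb genes separated the genotypes. The spike-in transcript Dap, added from outside, stood at 6.74 and 7.06 log2 intensity in the double mutants and at 3.29 to 3.43 in wild type. The 3′ minus 5′ difference of the Gapdh control probe sets was 0.27 and 0.16 in double mutants and −0.14 to −0.06 in wild type. That of Actb was 0.65 and 0.56 against 0.20, 0.24 and 0.68, so the genotypes overlapped there. Preparation and genotype therefore cannot be told apart. Both double mutant arrays held Xist (12.37 and 11.75) together with the Y-linked transcript Eif2s3y (8.36 in both). Wild type replicate 1 held Xist alone, and wild type replicates 2 and 3 held Eif2s3y alone. Whether each double mutant array holds RNA of 1 embryo is thus uncertain. The probe set of Sost with the higher signal fell by 2.17 ± 0.20 (SE, limma adjusted p = 0.0091). Its other probe set, 1421245_at, was dimmer than the median probe set and differed by −0.73 ± 0.34 (adjusted p = 0.237). Of the 2 Sostdc1 probe sets, 1460250_at fell by 2.35 ± 0.37 (adjusted p = 0.0233) and 1449340_at differed by 0.05 ± 0.09 (adjusted p = 0.775). The latter was the brighter, so by its brightest probe set Sostdc1 was not called although the gene was deleted. The 5 limb mesenchyme markers were all brighter than the median probe set, with summed linear intensities of 10765 to 11425 in double mutants and 10469 to 10679 in wild type. The sums were higher in double mutants for 6 surface ectoderm markers (4272 to 4404 against 3017 to 3353) and lower for 5 endothelial markers (737 to 849 against 1078 to 1199). They were also lower for 5 erythroid markers (44209 to 49423 against 50097 to 53558) and 4 muscle progenitor markers (662 to 703 against 909 to 1058). The median differences of these lists were 0.45 (ectoderm, Epcam and Cdh1 called higher), −0.06 (endothelium, Tie1 and Pecam1 called lower), −0.02 (erythroid, Hba-x and Alas2 called lower) and −0.27 (muscle, Myod1 called lower). The part of these cell types in the differences of proteasome genes was not tested. In whole limb buds, fewer cells of a type and less RNA per cell cannot be told apart.

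On their brightest probe sets, most proteasome genes had close to the same signal in both genotypes, and the few calls were all lower in the double mutants. Of 40 genes, 0 rose and 4 fell (10%), namely Psmb7, Psmc1, Psmd8 and Psma1. At an unadjusted limma p under 0.05 the counts were 1 higher (Psma3) and 9 lower. The background at that p was 28.7% of all genes, 13.3% higher and 15.3% lower. With double mutant replicate 1 or wild type replicate 2 left out, limma called 0 of all 45037 probe sets, with 14059 and 11115 at an unadjusted p under 0.05, so the loss of a call there is not particular to a gene. Among all 18193 genes measured in the same way, 14.7% were called, 6.56% higher and 8.14% lower, so the share of proteasome genes called lies near the background. Among the 4837 genes whose brightest probe set had a mean log2 intensity of 9 or more, where 35 of the 40 proteasome genes lie, 21.4% were called (10.4% higher and 11% lower), against 4 of 35 (11.4%). The median difference of the 40 genes was −0.06, and that of all genes was −0.02. In 36 of the 40 genes (90%) the difference was smaller than 0.3 in either direction, as it was in 72.3% of all genes. The 95% interval of limma's moderated fit lay wholly within 0.5 of zero for 34 of the 40 genes (85%) and for 58.6% of all genes. The arrays of the 2 groups did not overlap in 18 genes, 5 higher and 13 lower in double mutants (45%). They did not overlap in 43.2% of all genes, 20.2% higher and 23% lower. Among the 4837 genes at 9 or more they did not overlap in 59.4% (1571 genes higher, 1301 lower). Among the 35 proteasome genes at that level they did not overlap in 51.4% (5 higher, 13 lower). The median differences at that level were 0.02 in all genes and −0.06 in proteasome genes.

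**Figure D1:**
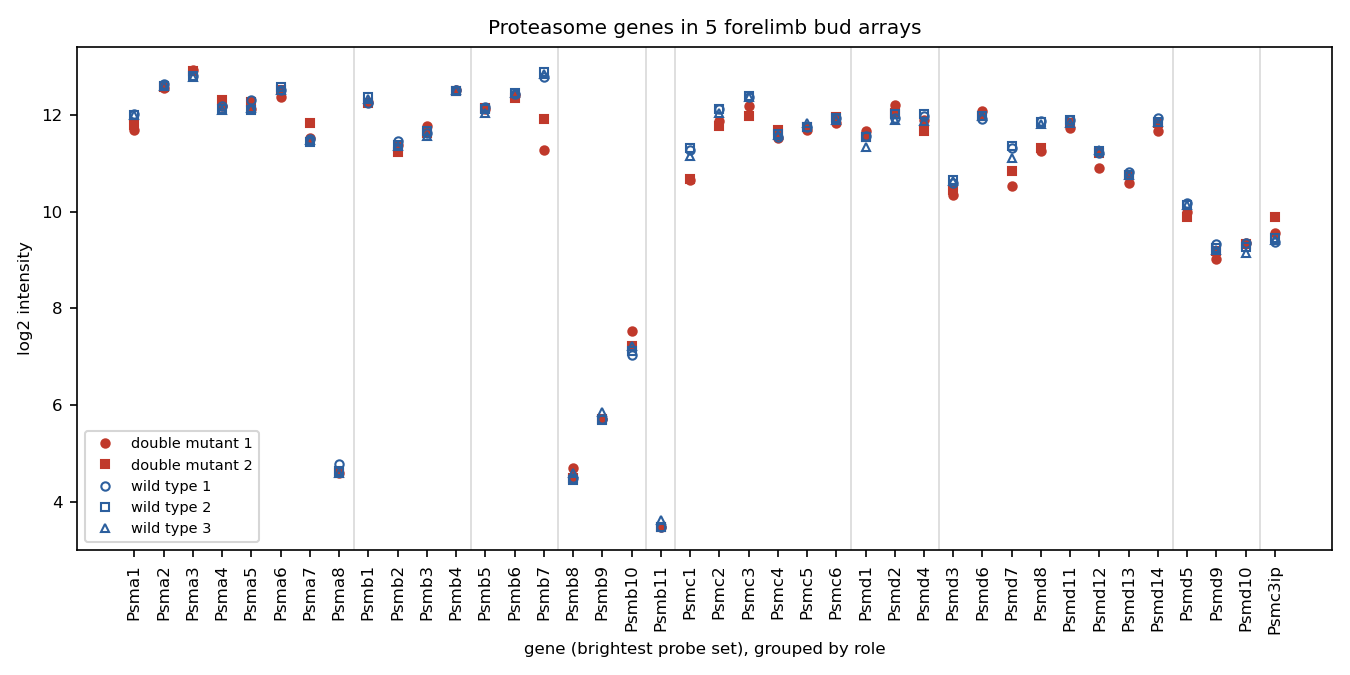
Log2 intensity of the brightest probe set of each of the 40 proteasome genes (vertical axis) in each array, with genes along the horizontal axis grouped by role between grey lines. Filled red symbols are the 2 double mutant arrays and open blue symbols the 3 wild type arrays. The symbols lie nearly on top of each other for most genes, and the red symbols lie clearly below the blue for Psmb7, Psmc1, Psmd7 and Psmd8. Heights of different genes come from different probes and are not comparable.

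The alpha subunits form the outer rings of the core particle. Of their 8 genes, 1 fell and 0 rose (12.5%, where 14.7% of all genes were called). Psma1 read 11.68 and 11.80 in the double mutants and 12.02, 12.01 and 12.00 in the wild types, a difference of −0.27 ± 0.05 (SE, limma adjusted p = 0.0408), or 1.21-fold. The groups did not overlap, and the wild type SD was 0.0115 (n = 3). The call held without double mutant replicate 2 and was lost without any other single array (adjusted p from 0.0632 to 0.137), and with quantile normalization (adjusted p = 0.0519) or equal array medians (adjusted p = 0.0537). Psma3 read 12.94 and 12.93 against 12.80, 12.80 and 12.79, with a difference of 0.13 ± 0.04 that was not called (adjusted p = 0.111). Its groups did not overlap, and the 95% interval ran from 0.02 to 0.24. Psma2 differed by −0.04 ± 0.04, with a 95% interval from −0.16 to 0.07. Psma4, Psma5, Psma6 and Psma7 differed by 0.11, 0.01, −0.10 and 0.21, and none was called. Psma8, the testis form of an alpha subunit, read 4.60 to 4.78 in all 5 arrays, dimmer than the median probe set (5.41).

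Among the beta subunits that carry no active site in the mature particle, differences were small. Of Psmb1, Psmb2, Psmb3 and Psmb4, 0 were called by limma and 0 had an unadjusted p under 0.05, and their differences ran from −0.09 to 0.09. Of all genes, 14.7% were called and 28.7% had such an unadjusted p, so a count of 0 in so few genes says little. Psmb4 read 12.51 and 12.51 in double mutants and 12.51, 12.50 and 12.52 in wild type, which leaves a 95% interval for its difference from −0.11 to 0.11. In 37 of the 80 proteasome probe sets, Psmb4 among them, a value was repeated exactly in at least 2 arrays, and in 21 of the 80 (not Psmb4) in arrays of the same genotype.

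The catalytic subunits differed from one another. Psmb7 encodes the subunit with trypsin-like activity. It read 11.29 and 11.93 in the double mutants and 12.80, 12.89 and 12.85 in wild type. Both mutant arrays lay below all wild type arrays, and they also lay well apart from each other. The difference was −1.23 ± 0.21 (SE, adjusted p = 0.0269), or 2.35-fold, the largest among the 40 genes on their brightest probe set. It was −0.91 without double mutant replicate 1 (adjusted p = 0.0511) and −1.56 without double mutant replicate 2 (adjusted p = 0.0359). Without wild type replicate 1, 2 or 3 it was −1.26, −1.21 and −1.23, with adjusted p of 0.0957, 0.128 and 0.0902. The platform has 1 probe set for Psmb7, so no second measure was at hand. Psmb5, with chymotrypsin-like activity, read 12.13 and 12.14 against 12.17, 12.13 and 12.05, a difference of 0.02 ± 0.06 (95% interval −0.13 to 0.17). Psmb6, with caspase-like activity, read 12.42 and 12.37 against 12.44, 12.45 and 12.47. Its groups did not overlap, yet the difference was −0.06 ± 0.04 (95% interval −0.18 to 0.06, adjusted p = 0.407).

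The immunoproteasome subunits Psmb8, Psmb9 and Psmb10 replace Psmb5, Psmb6 and Psmb7 in cells exposed to interferon and in blood cells. Of these 3 genes, 0 were called by limma and 0 had an unadjusted p under 0.05, where the shares of all genes were 14.7% and 28.7%. Psmb8 read 4.70 and 4.49 in double mutants and 4.46 to 4.59 in wild type, and Psmb9 read 5.71 in both double mutants and 5.69 to 5.85 in wild type. Psmb10 read 7.54 and 7.22 against 7.04, 7.12 and 7.22, a difference of 0.25 ± 0.12 (adjusted p = 0.251, 95% interval −0.08 to 0.58), and its groups overlapped. It was 0.09 without double mutant replicate 1 and 0.41 without double mutant replicate 2. All 6 macrophage and leukocyte markers were measured. Their summed linear intensity was 713 to 891 in double mutants and 937 to 1072 in wild type, and 0 of them were as dim as the median probe set. Their median difference was −0.15, and 0 of the 6 were called, where 14.7% of all genes were called. The part of such cells in the immunoproteasome signal was not tested. Psmb11, the form of the thymus, read 3.48 to 3.61 in all arrays.

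Within each array the immunoproteasome subunit was set against the subunit whose place it takes, as a log2 difference. Psmb10 minus Psmb7 was −3.75 and −4.71 in double mutants and −5.76, −5.76 and −5.63 in wild type. The change of 1.49 had an exact two-sided permutation p of 0.1, the smallest that the 10 splits of 5 arrays allow, and 0.3 after Benjamini-Hochberg adjustment over the 3 pairs. It was 1.01 without double mutant replicate 1 and 1.96 without double mutant replicate 2. Psmb7 itself differed by −1.23 and Psmb10 by 0.25. Psmb8 minus Psmb5 changed by 0.06 (exact permutation p = 0.5) and Psmb9 minus Psmb6 by 0.02 (exact permutation p = 0.8), and both changed sign with quantile normalization (−0.036 and −0.056). Psmb8 had a mean of 4.54, dimmer than the median probe set (5.41), and Psmb9 a mean of 5.74, little brighter than it. Signals this dim limit what these pairs can show.

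**Figure D2:**
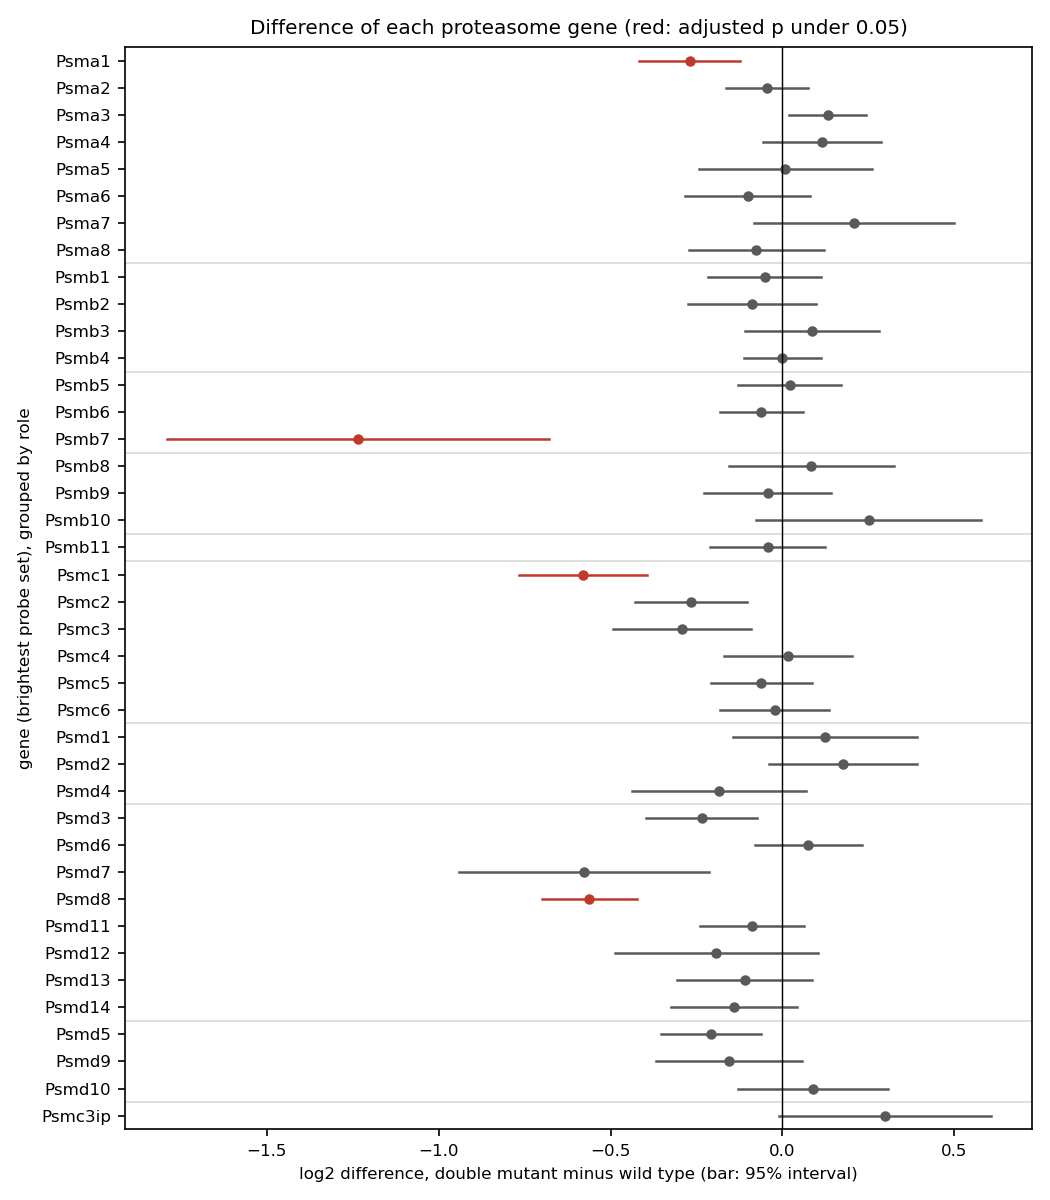
Log2 difference, double mutant minus wild type, of the brightest probe set of each of the 40 proteasome genes (horizontal axis), with genes down the vertical axis grouped by role. Points are differences, bars are 95% intervals of limma's moderated fit over 2 and 3 arrays, and red marks an adjusted p under 0.05. Psmb7 stands farthest out at −1.23, Psmc1 and Psmd8 lie near −0.6, and Psma1 lies at −0.27.

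The ATPases of the base form the ring that pulls substrate into the core. Of 6 genes, 1 fell and 0 rose (16.7%, where 14.7% of all genes were called). Psmc1, whose product helps open the gate of the core particle, read 10.66 and 10.68 in double mutants and 11.27, 11.32 and 11.15 in wild type. This is a difference of −0.58 ± 0.07 (SE, limma adjusted p = 0.0138), or 1.49-fold. Both mutant arrays lay below all wild type arrays by more than the spread in either group. The call held without wild type replicate 3 and was lost without any other single array (adjusted p from 0.0597 to 0.0759), while the difference stayed between −0.63 and −0.54. Psmc3 read 12.18 and 11.99 against 12.37, 12.40 and 12.37 (−0.29 ± 0.07, adjusted p = 0.068). Psmc2 read 11.89 and 11.79 against 12.13, 12.13 and 12.05 (−0.27 ± 0.06, adjusted p = 0.052), and its groups, like those of Psmc3, did not overlap. Its second probe set, 1426611_at, was called lower (−0.30 ± 0.05, adjusted p = 0.0241). Psmc4, Psmc5 and Psmc6 differed by 0.02, −0.06 and −0.02 and were not called. Psmc4 had a second probe set, 1416291_at, that was called lower (−0.33 ± 0.05, adjusted p = 0.0254).

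The subunits of the base that are no ATPases bind ubiquitin or the proteins that carry it. Psmd1 and Psmd2 encode its large scaffolds and Psmd4 a ubiquitin receptor. Psmd1, Psmd2 and Psmd4 differed by 0.12, 0.18 and −0.19, and 0 of 3 were called by limma or had an unadjusted p under 0.05. The shares of all genes were 14.7% and 28.7%. Psmd2 read 12.22 and 12.05 in double mutants and 11.95, 12.03 and 11.90 in wild type (adjusted p = 0.228). Psmd4 read 11.90 and 11.67 against 11.99, 12.03 and 11.89, and its groups overlapped. Its second probe set, 1425859_a_at, was called lower, at 10.77 and 10.80 against 11.52, 11.47 and 11.31 (−0.65 ± 0.08, adjusted p = 0.0147). Its dimmest, 1451725_a_at, was called higher (0.40 ± 0.08, adjusted p = 0.0445).

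The lid carries the enzyme that removes ubiquitin chains, encoded by Psmd14. Of 8 lid genes, 1 fell and 0 rose (12.5%, where 14.7% of all genes were called). Psmd8, a lid subunit that joins late in assembly, read 11.26 and 11.32 in double mutants and 11.89, 11.85 and 11.82 in wild type. The groups were separated by far more than their spread, with a difference of −0.56 ± 0.05 (SE, adjusted p = 0.00899), or 1.48-fold. The call was lost without double mutant replicate 1 (adjusted p = 0.0513) or wild type replicate 2 (adjusted p = 0.0632). It was kept without each of the other 3 arrays (adjusted p from 0.0252 to 0.0419), and the difference stayed between −0.59 and −0.53. Psmd7, which pairs with the Psmd14 protein, read 10.53 and 10.85 against 11.31, 11.36 and 11.12 (−0.58 ± 0.13, adjusted p = 0.0557). It was called with quantile normalization (adjusted p = 0.0476) and with equal array medians (adjusted p = 0.0233). It was not called with the replicate number as a block (adjusted p = 0.109). Without wild type replicate 1, 2 or 3 it was not called either (adjusted p = 0.164, 0.189 and 0.0888). The difference was −0.42 without double mutant replicate 1 and −0.74 without double mutant replicate 2. Psmd14 itself read 11.68 and 11.83 against 11.95, 11.87 and 11.87 (−0.14 ± 0.07, adjusted p = 0.25). Psmd3 differed by −0.23 ± 0.06 (adjusted p = 0.0685), and Psmd6, Psmd11, Psmd12 and Psmd13 by 0.08, −0.09, −0.19 and −0.11.

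The chaperones Psmd5, Psmd9 and Psmd10 help to build the base and are not part of the finished particle. They differed by −0.21, −0.16 and 0.09, and 0 of 3 were called by limma, with 1 (Psmd5) at an unadjusted p under 0.05. The shares of all genes were 14.7% and 28.7%. Psmc3ip, the gene that shares only the prefix, read 9.55 and 9.89 in double mutants and 9.38 to 9.46 in wild type (0.30 ± 0.11, adjusted p = 0.166).

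The other probe sets of these genes gave a different picture from the brightest ones. Of 40 such probe sets, 7 were called higher and 5 lower (30%), where 23.6% of all probe sets that are not the brightest of their gene were called, 8.66% higher and 15% lower. Over all 80 proteasome probe sets the counts were 7 and 9, where 18.2% of all probe sets were called, 8.7% higher and 9.52% lower. All 7 proteasome probe sets called higher had low signal in wild type, from 3.03 to 6.15 log2 intensity, and 4 of them were no brighter than the median probe set. Of the 20 proteasome probe sets at or below that level, 4 were called higher (20%) and 0 lower, while 8.81% of all such probe sets were called, 6.14% higher and 2.67% lower. Of the 60 proteasome probe sets above it, 3 were called higher (5%) and 9 lower (15%), beside 27.6% of all probe sets above it, 11.3% higher and 16.4% lower. Of these 3, probe set 1458292_at of Psma1 passed that level only through the double mutants (mean 7.17 against 4.59 in wild type). Where in the transcripts these probes lie was not analysed here.

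**Figure D3:**
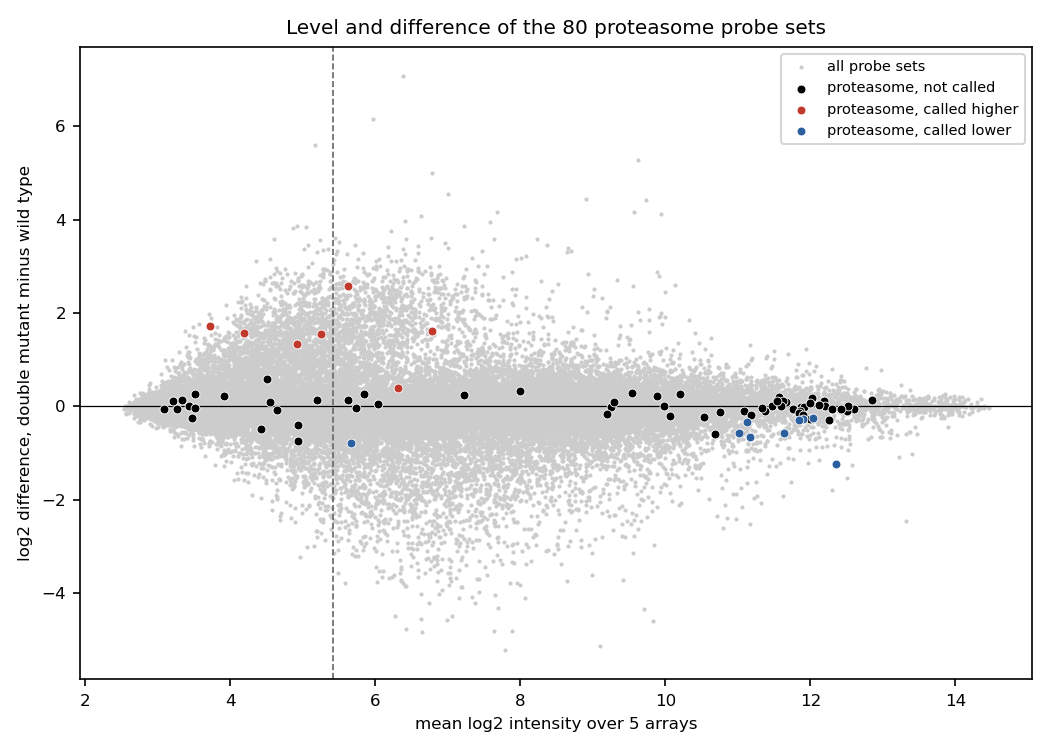
Log2 difference, double mutant minus wild type (vertical axis), against mean log2 intensity over the 5 arrays (horizontal axis) for the 80 proteasome probe sets, with all 45037 probe sets in grey. Red points were called higher, blue points lower and black points were not called, and the dashed line is the median level of all probe sets (5.41). The red points lie at means from 3.72 to 6.78, and the blue points lie at 11.02 or more except for 1 probe set of Psmd11 at 5.67.

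Psma1 showed the widest contrast between probe sets. Its second probe set, 1458292_at, read 7.38 and 6.96 in double mutants and 4.77, 4.47 and 4.54 in wild type, a rise of 2.58 ± 0.17 (SE, adjusted p = 0.00663), or 5.98-fold, while the brightest probe set fell. The groups did not overlap on either probe set, in opposite directions, and the fall on the brightest was small and lost in most fits that left out an array. Psmd7 had 1432820_at at 7.95 and 7.55 against 6.01, 6.21 and 6.19 (1.62 ± 0.15, adjusted p = 0.00905), beside −0.58 on its brightest probe set. Psma3 had 1441707_at at 6.24 and 6.11 against 4.64, 4.62 and 4.63 (1.54 ± 0.06, adjusted p = 0.00527), beside 0.13. In all 3 genes the mutant arrays were higher on the dimmer probe set without any overlap. These genes were picked for the disagreement of their probe sets, so this separation adds no support to it. The other dim probe sets called higher were 1435316_at of Psma6 (1.58), 1445729_at of Psmd13 (1.35) and 1447670_at of Psmd9 (1.73). Psma6 also had a bright probe set called lower, 1416506_at (−0.24 ± 0.05, adjusted p = 0.0466). The fifth Psmd11 probe set by brightness, 1456104_at, was called lower (−0.78 ± 0.10, adjusted p = 0.0162), while the brightest Psmd11 probe set differed by −0.09.

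**Figure D4:**
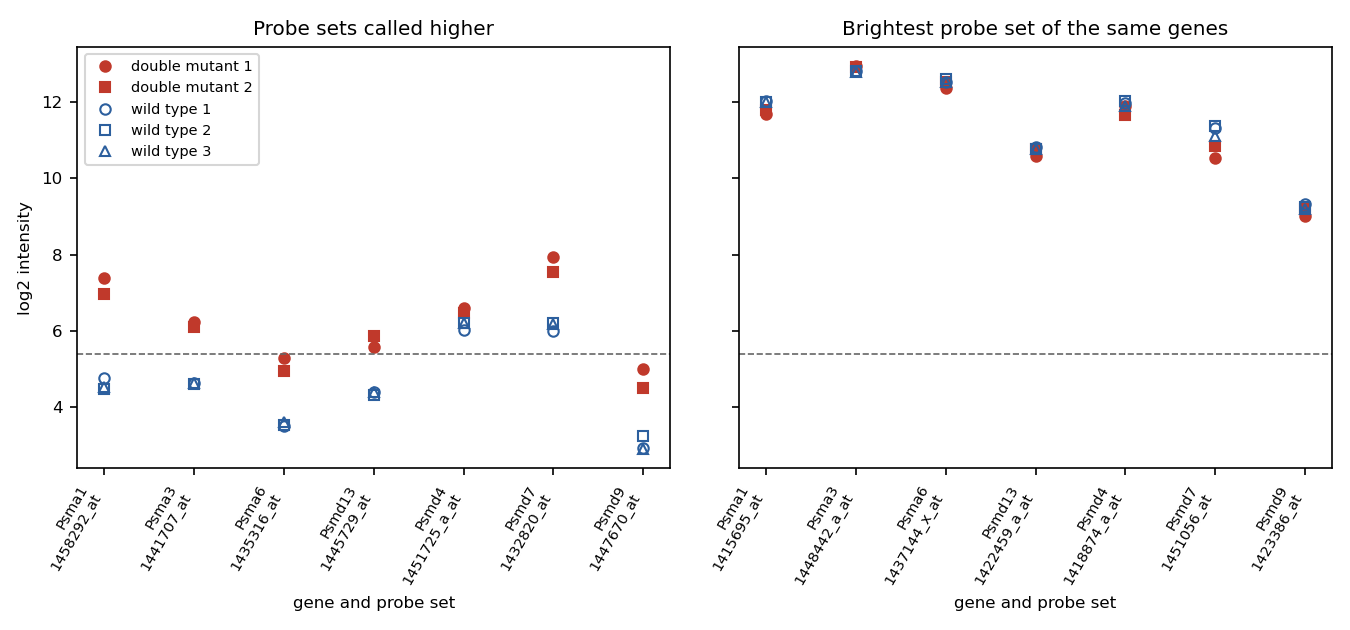
Log2 intensity in each array for the 7 proteasome probe sets called higher (left) and for the brightest probe set of the same 7 genes (right), with filled red symbols for double mutants, open blue symbols for wild type and a dashed line at the median level of all probe sets. On the left the double mutant arrays lie above wild type in every probe set, by 0.40 to 2.58. On the right the double mutants differ from wild type by −0.58 for Psmd7, and the differences of the other genes run from −0.27 to 0.13.

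Whether the brightest and the second brightest probe set of a gene gave different answers was tested directly, by fitting limma to their within-array difference in all 9010 genes with at least 2 probe sets. Of 21 proteasome genes, 5 disagreed (23.8%), against 29.5% of all genes. The 5 were Psma1 (brightest minus second −2.85 ± 0.19, adjusted p = 0.00182), Psmd7 (−2.19 ± 0.24, adjusted p = 0.00342), Psma3 (−1.41 ± 0.10, adjusted p = 0.00187), Psmc1 (−0.53 ± 0.10, adjusted p = 0.0154) and Psmd4 (0.47 ± 0.12, adjusted p = 0.0415). The second probe set of Psmc1 had a mean of 3.09, close to that of the spike-in control Trpn (3.07 in wild type), and it differed by −0.05. The median size of the disagreement was 0.195 in proteasome genes and 0.315 in all genes. The remaining 19 proteasome genes had 1 probe set each and could not be checked. Calls in both directions on different probe sets of a gene occurred in 3 of the 21 genes (Psma1, Psma6 and Psmd4), or 14.3%, and in 5.05% of all genes with several probe sets.

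As a reference, 34 housekeeping genes were treated alike: classical normalization genes, the chaperonin subunits and the subunits of translation initiation factor eIF3. On the brightest probe sets 1 rose and 6 fell (20.6%, where 14.7% of all genes were called), with a median difference of −0.03. The rise was Eif3a (0.42 ± 0.08, adjusted p = 0.0376). The falls were Eif3h (−0.51 ± 0.04, adjusted p = 0.00859), Eif3d, Eif3f, B2m, Tcp1 and Eef2. Their differences lay between −0.51 and 0.42. The median size of the difference was 0.155 in housekeeping and 0.112 in proteasome genes, and 76.5% against 90% were smaller than 0.3. In 6 of the 24 housekeeping genes with several probe sets the first pair disagreed (25%). Actb was the most extreme, with 0.14 on the brightest probe set and 4.13 on the second, and Tfrc had 0.28 and −2.91. Calls in both directions were seen in 0 of these 24 genes. Over all levels the proteasome genes thus had a share of disagreeing genes close to that of the reference, and no test of the difference between the lists was made. With both probe sets above the median level, 3 of 16 proteasome genes (18.8%) disagreed, against 23.5% of housekeeping and 38% of all genes. Psma1 is among these 3 through its double mutant arrays alone. With a dimmer second probe set, 2 of 5 proteasome genes (40%) disagreed, against 28.6% and 17.4%.

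**Figure D5:**
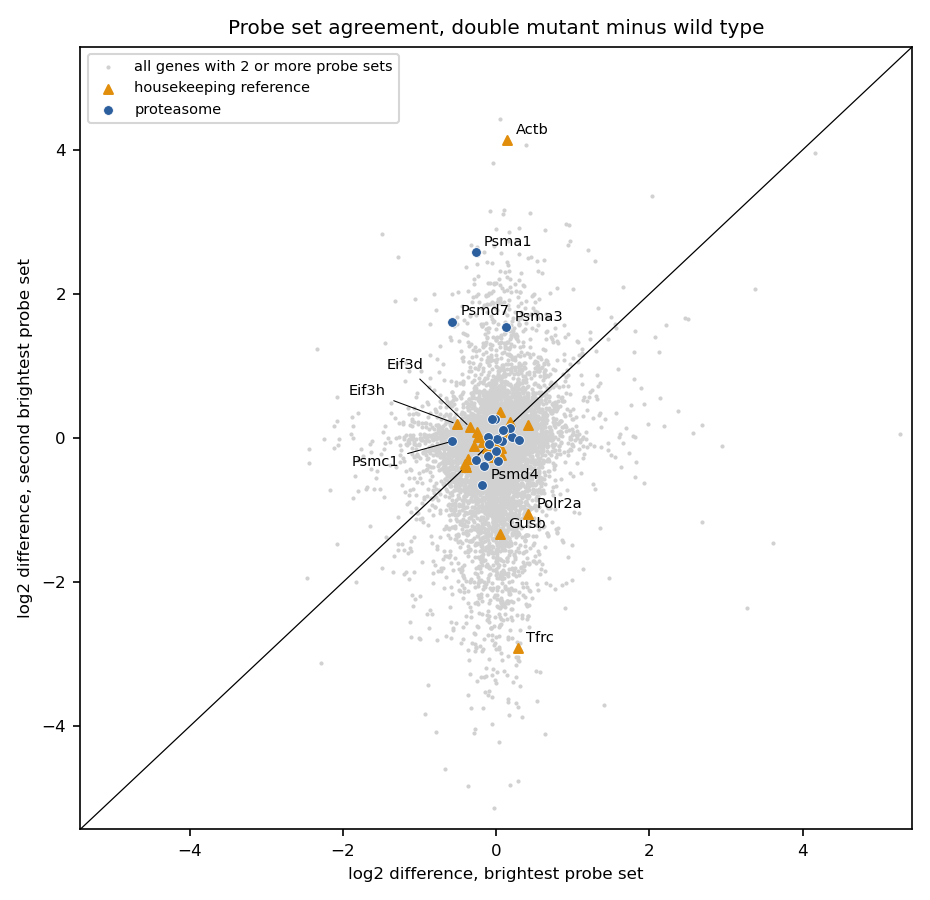
Log2 difference, double mutant minus wild type, on the second brightest probe set (vertical axis) against the brightest (horizontal axis) for the 21 proteasome genes (blue circles), 24 housekeeping genes (orange triangles) and all 9010 genes with at least 2 probe sets (grey). Named genes are those whose probe sets disagreed in the limma fit, and the line marks equal differences. Most proteasome genes sit near the centre, and Psma1, Psmd7 and Psma3 stand above it with second probe sets at 2.58, 1.62 and 1.54.

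Genes that work with the proteasome but lie outside the name rule gave 3 calls, all lower. Of 25 such genes measured, 0 rose and 3 fell (12%), where 14.7% of all genes were called. At an unadjusted limma p under 0.05 there were 5 higher and 6 lower, where the share of all genes was 28.7%. The median difference was 0.03. Psme3, which encodes a cap of the core particle in the nucleus, read 8.28 and 8.46 in double mutants and 9.53, 9.53 and 9.37 in wild type. This is a difference of −1.11 ± 0.09 (SE, limma adjusted p = 0.00799). Its second probe set fell by 1.57 ± 0.16 (adjusted p = 0.0108), and its dimmest, 1438509_at, differed by −0.02 (adjusted p = 0.739). Psmf1, a regulator of proteasome activity, read 8.64 and 8.72 against 9.55, 9.52 and 9.35 (−0.79 ± 0.08, adjusted p = 0.0111), but its second probe set differed by −0.18 (adjusted p = 0.225). Ufd1, a partner of the Vcp unfoldase that delivers ubiquitinated proteins, fell on both its probe sets (−0.69 ± 0.06 and −0.62 ± 0.08, adjusted p = 0.00873 and 0.0157). With double mutant replicate 1 left out, all 3 calls were lost (adjusted p from 0.0533 to 0.0699), as they were with wild type replicate 2 left out (adjusted p from 0.0616 to 0.0726). For Psmf1 the same held with double mutant replicate 2 left out (adjusted p = 0.056).

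The 5 assembly genes (Pomp and Psmg1 to Psmg4) gave 0 limma calls on their brightest probe sets and 1 at an unadjusted p under 0.05, with differences from −0.06 to 0.19. The shares of all genes were 14.7% and 28.7%. Psme1, a cap induced by interferon, differed by −0.25 (adjusted p = 0.0511) and Psme4 by 0.24 (adjusted p = 0.0536). Psme4 had dimmer probe sets called in both directions, 1426824_at at −1.23 and 1446464_at and 1445147_at at 1.40 and 2.47. Nfe2l1, whose product activates subunit genes, differed by 0.30 ± 0.16 (adjusted p = 0.296), and its relative Nfe2l2 by −0.26 ± 0.09 (adjusted p = 0.143). Sem1, a small lid protein, and the deubiquitinase genes Usp14 and Uchl5 differed by 0.18, −0.14 and 0.25, and 0 of 3 were called by limma, with 1 at an unadjusted p under 0.05. Of the other 41 probe sets of these 25 genes, 7 were called higher and 9 lower (39%, against 23.6% of all probe sets that are not the brightest of their gene). Among them was 1457588_at of Vcp (2.30 ± 0.22, adjusted p = 0.00943) beside 0.11 on the brightest Vcp probe set. Also called higher were 1439201_at of Usp14 (1.72, adjusted p = 0.00728), 1419453_at of Uchl5 (1.41, adjusted p = 0.0161) and 1430572_at of Psmg3 (2.23, adjusted p = 0.00755). The Uchl5 and Psmg3 probe sets were dimmer than the median probe set.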

How the data were processed

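Gene expression was measured on 5 Affymetrix arrays, 2 of double mutant and 3 of wild type forelimb. The deposited table holds linear intensity per probe set; RMA and limma are named in the submitters' processing notes, but their versions and settings are not given in the sources used here. Here log2 was taken with no further normalization and 64 control probe sets were left out. limma 3.58.1 in R 4.3.3 (lmFit and eBayes) compared the genotypes over 45037 probe sets, with residual degrees of freedom of 3 and Benjamini-Hochberg adjustment. Arrays of this number limit the precision: the median 95% interval of a proteasome gene reached 0.186 to each side.

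Of the tested probe sets, 34945 have 1 gene symbol in the platform annotation, 932 have several and 9160 have none, and only the first kind was named. All 40 genes matched the reference names. Scripts were tested on simulated data. Alternatives were array scaling, variance trend, a filter on dim probe sets, other probe set rules, a replicate block and leaving out each array.

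Genes named in full were the catalytic and immunoproteasome subunits. By rule, so were members with the largest called differences or disagreement, the brightest members, and the genes of smallest limma p in each other list. Other genes complete a count or were named after their values were seen, as was the log2 level of 9. Members and lists were chosen with earlier results of these data known.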

Additional observations from a re-analysis of the deposited data

How the results depend on the processing

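The count of 4 called proteasome genes was 8 with a variance trend (1 higher), 8 with probe sets averaged per gene (5 higher, 3 lower) and 7 of 21 with the second brightest probe set (3 higher, 4 lower), so those calls were not all lower; 14.7%, 21.5% and 23.3% of all genes were called there. It was 1 at p under 0.01 with 1.5-fold, where 6.97% of all genes were called. With the filter on dim probe sets it was 6 of 37, where 25.8% of all genes were called. Leaving out 1 wild type array gave 0 to 2, where 0 to 7.23% of all genes were called. With the replicate number as a block the count was 0, where 1.25% of all genes were called. The block lowered the calls over all probe sets from 8206 to 2351. Only 2 numbers are shared, the labels do not say that they pair embryos, and the deviations of same-numbered arrays correlated at 0.0895 and 0.12. The median difference was −0.15 with arrays at equal medians (that of all genes moved from −0.02 to −0.11), −0.0081 with the second brightest probe set and −0.016 with averaged probe sets, and −0.068 to −0.030 with 1 array left out.

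The 3 calls among other pathway genes became 7 (trend), 5 (dim filter), 0 (block), 10 (second brightest), 14 (averaged) and 5 (without _s_at and _x_at probe sets). They were 0 to 4 with 1 wild type array left out. The shares of all genes called were 14.7%, 25.8%, 1.25%, 23.3%, 21.5% and 15.3% in that order. They were 0 to 7.23% with 1 wild type array left out. The 7 housekeeping calls became 4 (quantile), 11 (trend), 0 (block) and 0 (p under 0.01 with 1.5-fold), and 0 to 2 with 1 wild type array left out. Of all genes, 15.4% were called with quantile normalization and 6.97% at p under 0.01 with 1.5-fold. Over all probe sets, leaving out 1 array gave 0 to 5108 limma calls, with 0 without double mutant replicate 1 or wild type replicate 2, where 14059 and 11115 had an unadjusted p under 0.05. The 5 disagreeing genes became 3 with the dim filter, which Psma1 passed through the double mutants alone, and 3 to 4 with 1 array left out.

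The within-array change of Psmb8 minus Psmb5 was −0.036 with quantile normalization (−0.051 to 0.177 with 1 array left out), and that of Psmb9 minus Psmb6 was −0.056 (−0.011 to 0.062). Psmb10 minus Psmb7 ran from 1.01 to 1.96 with 1 array left out. The direction turned for Psma1 (2.58 second brightest, 0.65 averaged), Psmd7 (1.62 second brightest, 0.26 averaged), Psma6 (0.32 averaged), Eif3h (0.19 second brightest) and Eif3d (0.15 second brightest). Differences near 0 that were not called also changed sign: Psmb5 (−0.07 at equal medians; −0.011 with the block or without wild type replicate 3), Psmb8 (−0.0066 at equal medians, −0.022 without double mutant replicate 1), Psmb9 (0.0078 with the block or without wild type replicate 3) and Psmb4 (0.00096 to 0.010 in 5 settings). The cause was not tested. Signals near background limit Psma8, Psmb8 and Psmb11.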
